A study of Mus musculus with 2 samples.

Results

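The interferon regulatory factors are transcription factors that share an N-terminal DNA-binding domain and bind variants of the interferon-stimulated response element. The 8 genes described here are Irf1, Irf2, Irf3, Irf4, Irf5, Irf7, Irf8 and Irf9, found by symbol among 25791 genes in both tables. RNA had been sequenced from epithelial cells of the fetal mouse thymus at 15 days post coitum, isolated as EpCAM+ cells that lacked CD45, the surface marker of leukocytes, and PDGFRa, a marker of mesenchyme. The library titled B6J came from C57BL/6 mice and the library titled humanCD3eTg from mice of mixed background, labelled C57BL/6J x CBA/J. The comparison concerns the thymic epithelium with and without developing thymocytes beside it. The treatment labels call thymocytes absent in B6J and present in humanCD3eTg, which runs opposite to what is generally known of mice that carry many copies of human CD3E, so the titles are used as group names. The labels give neither the promoter nor the copy number of the transgene, nor how many fetuses were pooled, and the strain differs together with the group. Each group held 1 library, so no test was made and no difference can be set against a spread between mice.

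Interferons signal through their receptors and JAK kinases to transcription factors of the STAT family. A complex of IRF9 with STAT proteins, STAT2 among them, turns on antiviral genes, while interferon gamma induces IRF1, which drives genes of antigen processing. IRF2 binds many of the same sites as IRF1 and can hold them down. IRF3, IRF5 and IRF7 act at an earlier step, where sensors of nucleic acids lead to their phosphorylation and to production of interferon. IRF4 and IRF8 are best known from lymphoid and myeloid cells, where they bind DNA together with partner factors.

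Most of the 8 genes were lower in humanCD3eTg, by up to 2.30 times in FPKM for Irf9 and 2.51 times for the scarce Irf4, and Irf5 was higher. Values are FPKM (fragments scaled by transcript length and by the number of mapped fragments), and log2 ratios are humanCD3eTg over B6J on FPKM + 1. A gene was counted where its mean over both libraries reached 1 FPKM, which 7 of the 8 members and 13493 genes in all passed. All 7 also reached 1 FPKM in each library. Of these 7, Irf8 and Irf9 were at least 2-fold lower, beside 4.47% of all genes used, and none was at least 2-fold higher, beside 2.10%. At a limit of 1.5-fold, 3 were lower (Irf7, Irf8 and Irf9) and Irf5 was higher, beside 10.9% and 5.95% of all genes used. None passed 4-fold in either direction, beside 1.27% lower and 0.489% higher. The remaining 3 differed by less than 1.5-fold. The median log2 ratio of the 7 was -0.40, beside -0.05 for all genes used. Of all genes used, 55.4% had a log2 ratio below 0.

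**Figure D1:**
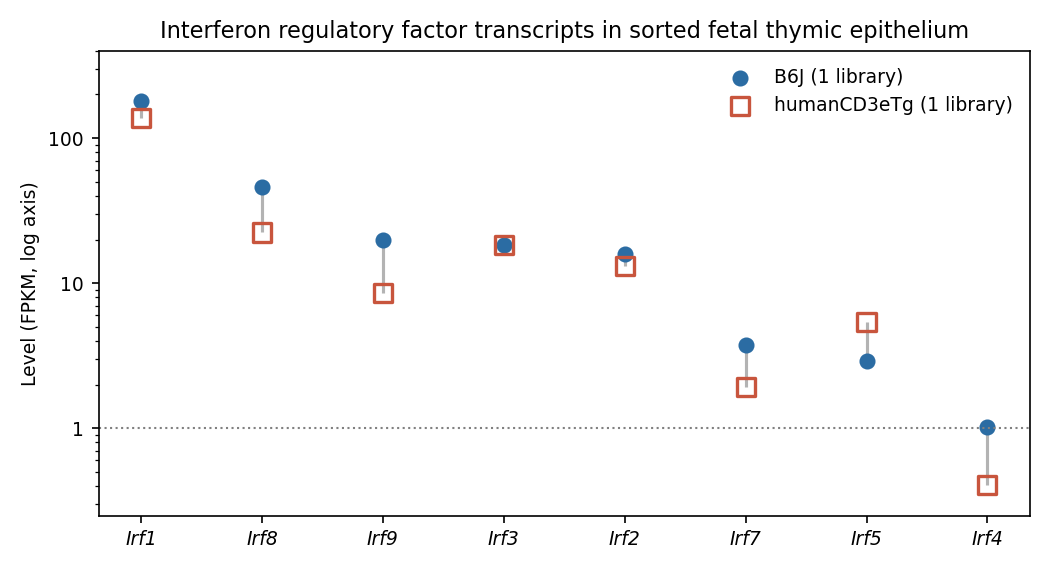
Level of each interferon regulatory factor in FPKM (log axis) in the single library titled B6J (filled circles) and the single library titled humanCD3eTg (open squares), with a dotted line at 1 FPKM. Irf1 stands highest in both libraries, at 181 and 137 FPKM, Irf8 and Irf9 differ most among the well-expressed genes, and Irf5 alone stands clearly higher in humanCD3eTg.

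Irf1, the interferon-gamma-induced activator of antigen processing genes, had the highest level of the family. It stood at 181 FPKM in B6J against 137 FPKM in humanCD3eTg, ranks 559 and 757 among the 25791 genes, with a log2 ratio of -0.40. It made up 62.7% of the summed FPKM of the 8 genes in B6J and 66.1% in humanCD3eTg, while that sum was 289 and 207 FPKM. From the steps between low FPKM values, an estimated 6958 and 4186 fragments lay behind Irf1. Its FPKM ratio of 0.756 therefore carried an approximate 95% counting interval of 0.728 to 0.786. Such intervals (exact binomial) cover counting error only, not differences between mice or sorts.

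Irf2, which competes with IRF1 for DNA, was the gene next closest to equality after Irf3. It stood at 15.9 FPKM in B6J against 13.2 FPKM in humanCD3eTg (log2 ratio -0.25). The FPKM ratio of 0.830 had a counting interval of 0.738 to 0.933. Within a library, where scaling between libraries plays no part, Irf1 was 11.4 times Irf2 in B6J and 10.4 times Irf2 in humanCD3eTg. This ratio of activator to competitor transcripts was thus similar in both libraries, with no replicate spread to set it against.

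The promoters of Irf1, Irf2 and Irf8 are shown because these were the members with a match to a motif of interferon signalling. The sequences are from RefSeq on GRCm38.p6, a later build than the mm9 named for the FPKM files, which hold no coordinates. All 8 members had an entry, 11 promoters in all, each running from 250 bases before to 50 bases after a transcript start. The search covered both strands for GAAA, any 2 bases and GAAA (core of the interferon-stimulated response element), TTCNNNGAA (gamma-activated site, bound by STAT factors) and GGAA, any 2 bases and GAAA (composite element of ETS and IRF factors). Each stretch is 150 bases on the + strand, 5′ to 3′, with the matches in capitals: bases 150 to 1 before the start for Irf1 (chr11:53769864-53770013), and bases 250 to 101 before it for Irf2 (chr8:46739495-46739644) and Irf8 (chr8:120736108-120736257).
Irf1: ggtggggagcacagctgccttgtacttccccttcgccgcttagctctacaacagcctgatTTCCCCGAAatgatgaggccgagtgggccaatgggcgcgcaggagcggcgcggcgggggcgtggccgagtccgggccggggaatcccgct
Irf2: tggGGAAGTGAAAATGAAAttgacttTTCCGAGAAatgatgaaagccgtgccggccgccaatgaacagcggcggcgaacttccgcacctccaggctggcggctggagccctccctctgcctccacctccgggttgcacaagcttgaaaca
Irf8: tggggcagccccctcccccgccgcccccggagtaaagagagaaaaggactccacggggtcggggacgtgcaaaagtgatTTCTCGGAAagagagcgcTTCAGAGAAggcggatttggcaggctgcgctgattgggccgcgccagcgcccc

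In Irf1 the capitals mark 1 gamma-activated site, TTCCCCGAA, which begins 90 bases before the start. Irf8 held 2 matches to this motif, TTCTCGGAA and TTCAGAGAA, beginning 171 and 153 bases before its start. Irf2 held a match to each motif: the composite GGAAGTGAAA begins 247 bases before the start and overlaps the response element core GAAAATGAAA, and TTCCGAGAA begins 224 bases before it. In GENCODE M21 the first bases of the Irf2 stretch, up to position 46739515, lie in an exon of Gm16675, a noncoding gene on the other strand. Of 32851 promoters of the same length, 3.44% held the response element core, 8.30% the gamma-activated site and 2.72% the composite element. These are matches of letters, and binding was not measured. Levels of the 3 genes with a match differed between libraries by anything from a log2 ratio of -0.25 (Irf2) to -1.005 (Irf8), so a match did not go with 1 size of difference.

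Irf9, the DNA-binding partner of STAT2, had the lowest log2 ratio of the family. It stood at 19.7 FPKM in B6J against 8.58 FPKM in humanCD3eTg (log2 ratio -1.11). About 1079 and 374 fragments lay behind these values, and the FPKM ratio of 0.436 had a counting interval of 0.386 to 0.491. Of all genes used, 3.72% had a lower log2 ratio. Relative to Irf2 in the same library, Irf9 went from 1.24 times to 0.649 times, a pair chosen after the values were seen. Irf9 shares 2.28% of its exonic bases with Rnf31, which stood at 10.4 and 6.91 FPKM.

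Its partner differed by a similar amount. Stat2 stood at 6.02 FPKM in B6J against 2.05 FPKM in humanCD3eTg (log2 ratio -1.20). Both genes were at least 2-fold lower on FPKM + 1, whereas with a pseudocount of 5 Irf9 was at -0.86 and Stat2 at -0.64.

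Irf3, Irf7 and Irf5, the factors that sensors activate, went in different directions. Irf3, which is made in most cells and is switched on by phosphorylation, stood at 18.4 FPKM in each library, with a log2 ratio of 0.00 and a counting interval of the FPKM ratio from 0.888 to 1.12. Its sign was negative on FPKM + 1 and turned positive with median centring and with quantile normalization, so no direction is given. Irf7, which interferon itself induces, stood at 3.78 FPKM in B6J against 1.94 FPKM in humanCD3eTg (log2 ratio -0.70). Only about 153 and 62 fragments supported Irf7, and the FPKM ratio of 0.513 had an interval of 0.373 to 0.688. Within a library Irf7 was 0.205 times Irf3 in B6J and 0.106 times Irf3 in humanCD3eTg.

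Irf5, known from myeloid cells and from Toll-like receptor signalling through MyD88, was the 1 member higher in humanCD3eTg apart from Irf3, whose direction depended on scaling. It stood at 2.90 FPKM in B6J against 5.44 FPKM in humanCD3eTg (log2 ratio 0.72), and 4.15% of genes used had a higher ratio. With about 117 and 175 fragments, its FPKM ratio of 1.88 had an interval of 1.48 to 2.40. Irf5 shares 14.1% of its exonic bases with Tnpo3 on the opposite strand in GENCODE M21. Tnpo3 stood at 28.6 and 26.0 FPKM, and since use of strand is not given in the sources used here, reads of the shared stretch cannot be assigned.

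Irf8, a regulator of myeloid and B cell development, was the second most abundant member in both libraries. It stood at 45.9 FPKM in B6J against 22.4 FPKM in humanCD3eTg, with a log2 ratio of -1.005 (just beyond the 2-fold limit) and a counting interval of the FPKM ratio from 0.452 to 0.526. Its share of the summed FPKM of the family was 15.9% and 10.8%. The highest of 17 macrophage and dendritic cell markers stood at 11.0 FPKM in B6J against 8.80 in humanCD3eTg, and the highest of 8 B and plasma cell markers at 4.40 and 3.24 FPKM. Of 13 pan-haematopoietic markers only Arhgdib, named after its values were seen, stood above Irf8, at 117 and 64.9 FPKM. Coro1a, the next highest in B6J, stood at 25.2 and 2.22 FPKM. Which cells the Irf8 transcripts came from was not tested.

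Irf4, which lymphocytes express on activation, had the lowest level of the family. It stood at 1.03 FPKM in B6J against 0.408 FPKM in humanCD3eTg and was left out of the counts, since its mean was below 1 FPKM. The log2 ratio of -0.52 understates an FPKM ratio of 0.398, which rested on about 93 and 29 fragments (interval 0.249 to 0.60). Irf8 exceeded Irf4 44.7 times in B6J and 54.8 times in humanCD3eTg.

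**Figure D2:**
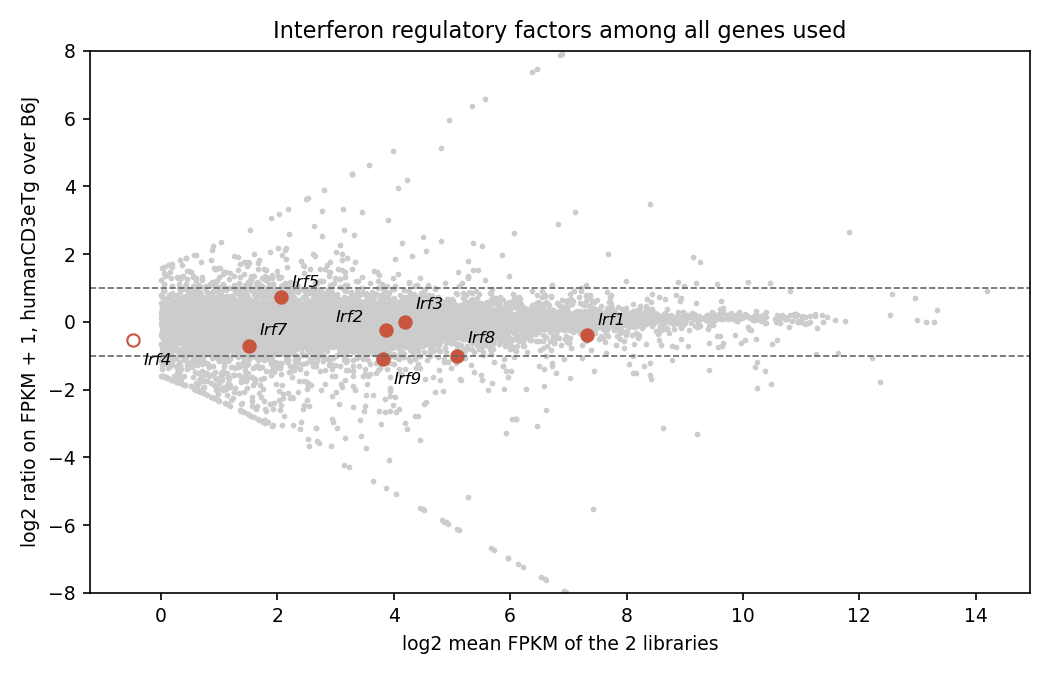
Log2 ratio on FPKM + 1 (humanCD3eTg over B6J) against the log2 mean FPKM of both libraries, for the 13493 genes used (grey) and the 8 interferon regulatory factors (red, Irf4 open because its mean is below 1 FPKM). Dashed lines mark 2-fold: Irf9 and Irf8 lie at -1.11 and -1.005, and Irf5 at 0.72 lies inside the upper line.

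The order of levels in B6J was Irf1, Irf8, Irf9, Irf3, Irf2, Irf7, Irf5 and Irf4. In humanCD3eTg it was Irf1, Irf8, Irf3, Irf2, Irf9, Irf5, Irf7 and Irf4, so Irf9 stood below Irf3 and Irf2 there and Irf5 above Irf7. In B6J, Irf9, Irf3 and Irf2 lay between 15.9 and 19.7 FPKM. With no replicate the order of such close neighbours cannot be set against a spread.

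Markers of other cells moved with these differences, and in a bulk sample fewer cells of a type and less RNA per cell cannot be told apart. All 13 pan-haematopoietic markers were lower in humanCD3eTg. The share of all genes used that were lower, 55.4%, stands beside this and the following counts, which take in markers under a mean of 1 FPKM. The 13 summed to 212 FPKM in B6J against 75.8 in humanCD3eTg, of which Arhgdib alone gave 117 and 64.9. Of 15 thymocyte markers 14 were lower, with sums of 170 and 8.70 FPKM, and 5 of them, including Cd3g and Cd3d, were listed at 0 in humanCD3eTg. Their sum was thus higher in B6J, the library whose treatment label calls thymocytes absent. The 10 markers of NK and innate lymphoid cells summed to 72.2 and 1.35 FPKM, with 9 of them lower and the other at 0 in both. The 11 endothelial markers were all lower, summing to 62.9 and 17.7 FPKM. Among them Egfl7, named after its values were seen, was near equal at 8.54 and 8.41 FPKM (log2 ratio -0.02).

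Markers of macrophages, dendritic cells and B cells, the cells best known for Irf4, Irf5 and Irf8, had smaller differences in their sums than those of thymocytes. Of 17 macrophage and dendritic cell markers 10 were lower, beside 55.4% of all genes used, and 7 higher, with sums of 35.2 and 28.1 FPKM. Csf1r, the receptor that macrophages depend on, stood at 0.667 and 1.24 FPKM, with a mean below 1 FPKM. Mpeg1, another marker of this list, went the other way at 3.26 and 0.519 FPKM (log2 ratio -1.49), and passed the filter through B6J alone. Of 8 B and plasma cell markers 5 were lower, beside 55.4% of all genes used, and 3 higher, with sums of 15.5 and 9.47 FPKM. Cd79a, a chain of the B cell receptor complex, stood at 2.89 and 1.35 FPKM. The 6 markers of plasmacytoid dendritic cells summed to 42.0 and 17.9 FPKM, with 4 lower and the other 2 at 0 in both libraries. Of the 4, Tcf4 was near equal at 14.7 and 14.6 FPKM (log2 ratio -0.003), and the lower sum rested mostly on Bst2. Among them Bst2, also an interferon target, stood at 25.7 and 3.24 FPKM (log2 ratio -2.66), Ccr9 was at 1.59 FPKM in B6J and listed at 0 in humanCD3eTg, and Siglech, a defining marker, gave 0.00127 FPKM in B6J against 0 in humanCD3eTg. The 9 neural crest and pigment cell markers, which moved the same way as Irf5, summed to 9.72 and 137 FPKM, with 8 higher and the other at 0 in both. The part of these cells in the values of the interferon regulatory factors was not tested.

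The epithelial markers Epcam and Krt8 were high in both libraries, whereas Foxn1 stood at 91.1 and 43.7 FPKM (log2 ratio -1.04). Foxn1 was the 1 of 8 sort and epithelial identity markers at least 2-fold lower, beside 4.47% of all genes used. Of the 8, 5 were lower, beside 55.4% of all genes used, and 3 higher. Epcam stood at 174 and 231 FPKM, Krt8 at 2183 and 2103, and Ptprc, which encodes CD45, at 4.18 and 0.358 FPKM. The 9 cortical epithelial markers summed to 5087 and 3573 FPKM. All 9 were lower in humanCD3eTg, beside 55.4% of all genes used, with a median log2 ratio of -0.51. Of 10 medullary markers 7 were lower, beside 55.4% of all genes used, and 3 higher. The median log2 ratio of the 9 used was -1.31. Of these 9, 6 passed the 2-fold limit downwards, beside 4.47% of all genes used, and 2 upwards, beside 2.10%. Of the 10, 6 reached 1 FPKM in both libraries. Used markers below 1 FPKM in humanCD3eTg, Cd80 (2.30 and 0 FPKM) among them, passed the filter through B6J alone and could only come out lower. Aire, the regulator of tissue-restricted antigens, stood at 7.53 and 0.0366 FPKM and passed the filter through B6J alone. The list summed to 573 and 1276 FPKM, and the higher sum rested mostly on Krt5, named after its values were seen, at 280.2 and 955 FPKM. The 10 mesenchymal markers summed to 199 and 234.3 FPKM, with 7 lower, and the 8 erythroid markers to 2611 and 1585 FPKM, with 7 lower. Both counts stand beside 55.4% of all genes used.

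Upstream of the family, interferon transcripts were scarce. None of the 10 interferon genes reached a mean of 1 FPKM, and 4 were listed at 0 in both libraries. Ifng, the interferon of T and NK cells, stood at 1.24 FPKM in B6J against 0.189 in humanCD3eTg. Ifnk, an interferon of keratinocytes, was listed at 0 in B6J and at 1.13 FPKM in humanCD3eTg. Il28a and Il28b had identical values (0.132 and 0.0834 FPKM), as near-identical genes that may share reads, and are uncertain.

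Receptor and kinase genes were expressed in both libraries. All 10 genes reported for interferon receptors, JAK kinases and STAT2 reached 1 FPKM in each. In humanCD3eTg 8 were lower (median log2 ratio -0.32), beside 55.4% of all genes used, and 2 were at least 2-fold lower, beside 4.47%. Beside Stat2 this was Ifngr1, the ligand-binding chain of the interferon-gamma receptor, at 19.9 and 7.22 FPKM (-1.35). Ifnar1, a chain of the type I receptor, stood at 13.6 and 8.11 FPKM (-0.68), whereas its partner chain Ifnar2 stood at 23.6 and 24.1 FPKM. Jak1 stood at 57.1 and 41.0 FPKM, and Jak2 at 21.4 and 22.4 FPKM.

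Among sensors and adaptors, Tmem173 stood apart. It encodes STING, which leads from cytosolic DNA to IRF3, and it stood at 25.8 FPKM in B6J against 4.93 in humanCD3eTg (log2 ratio -2.18). It was the only 1 of 11 used genes of this list at least 2-fold lower (median -0.51), beside 4.47% of all genes used. Of the 19 genes found, 8 were below a mean of 1 FPKM. Myd88, the adaptor of most Toll-like receptors, stood at 19.8 and 11.6 FPKM (-0.72), and Ticam1, the adaptor of TLR3, at 6.92 and 3.72 FPKM (-0.75). Ddx58, which encodes the RNA sensor RIG-I, stood at 13.4 and 9.13 FPKM (-0.51).

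The kinases and scaffolds that activate IRF3, IRF5 and IRF7 were close to equal. None of 11 genes differed by 2-fold, beside 4.47% lower and 2.10% higher among all genes used. Their log2 ratios ran from -0.45 to 0.13, and the median was -0.17. Tbk1, the main kinase of IRF3, stood at 9.80 and 9.41 FPKM. Ikbke, its relative, had the lowest ratio of the list at 2.31 and 1.43 FPKM.

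Partner genes showed no common direction. Of 8 used genes 5 were lower, beside 55.4% of all genes used, and 3 higher (median -0.08). Of the 10 genes listed, 1 was not analysed here. Of the 8, 7 reached 1 FPKM in both libraries. Ikzf1, a lymphoid factor that binds DNA with IRF4 or IRF8, stood at 5.72 and 0.192 FPKM (-2.50). It was the 1 gene at least 2-fold lower, beside 4.47% of all genes used, and passed the filter through B6J alone. Batf, the AP-1 partner of IRF4, stood at 3.78 and 2.43 FPKM (-0.48), while Batf3, the partner of IRF8 in dendritic cells, stood higher at 2.85 and 5.46 FPKM (0.75). Spib, an ETS partner also known in medullary epithelium, stood at 9.74 and 7.51 FPKM, and the corepressor genes Irf2bp1 and Irf2bp2 at 19.95 and 18.9 FPKM and at 17.2 and 19.8 FPKM.

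Targets of the complex of IRF9 and STAT2 were lower beside Irf9. Of 30 genes found 20 were used and 16 reached 1 FPKM in both libraries. Among the 20, 19 were lower, beside 55.4% of all genes used, and 9 were at least 2-fold lower, beside 4.47%. None was 2-fold higher, and the median log2 ratio was -0.95. Zbp1, a nucleic acid sensor, stood at 6.59 and 0.283 FPKM (-2.56), Xaf1, a proapoptotic gene, at 6.10 and 1.55 FPKM (-1.48), and Isg15, a ubiquitin-like modifier, at 30.4 and 11.3 FPKM (-1.35). Parp14 stood at 4.0 and 0.689 FPKM (-1.57) and Dtx3l at 7.27 and 2.56 FPKM (-1.22). Used genes below 1 FPKM in humanCD3eTg, Zbp1 and Parp14 among them, passed the filter through B6J alone and could only come out lower. They stay in these counts and in the median, which therefore rest in part on the filter. Ifit2, named after its values were seen, was the 1 used gene not lower, at 2.08 and 2.11 FPKM. Stat2 is itself on this list. So are Ifih1, also among the sensors, Bst2, also on the IRF1 list, and Usp18, also among the negative regulators.

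Genes known to need IRF1 or to be induced through it had a lower median log2 ratio than Irf1 itself. All 22 used genes of 25 found were lower in humanCD3eTg, beside 55.4% of all genes used. Of the 22, 18 were at least 2-fold lower, beside 4.47%, and the median log2 ratio was -1.52, beside -0.40 for Irf1. Of the 25, 18 reached 1 FPKM in both libraries. Used genes below 1 FPKM in humanCD3eTg, Psmb8 and Cxcl11 among them, passed the filter through B6J alone and could only come out lower. They stay in the count at 2-fold and in the median, which therefore rest in part on the filter. With a mean of at least 5 FPKM, which still took in Psmb8, the median was -1.48, beside -0.02 for all genes past that filter. Bst2 is also among the targets of IRF9 and STAT2, and Socs1 among the negative regulators. Ciita, the master switch of MHC class II genes, stood at 13.3 and 2.13 FPKM (-2.19), and Vcam1, an adhesion molecule, at 79.9 and 18.9 FPKM (-2.02). Psmb8, an immunoproteasome subunit gene, had the lowest ratio of the list at 17.3 and 0.681 FPKM (-3.44), and passed the filter through B6J alone. Tap1 followed among the processing genes at -2.43. Psmb8, Tap1 and other genes of this list, Tap2, Tapbp and Psmb9, lie in the MHC, where the strains differ, and strain and group cannot be told apart. The haematopoietic and endothelial markers above moved the same way, and their part in this list was not tested.

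**Figure D3:**
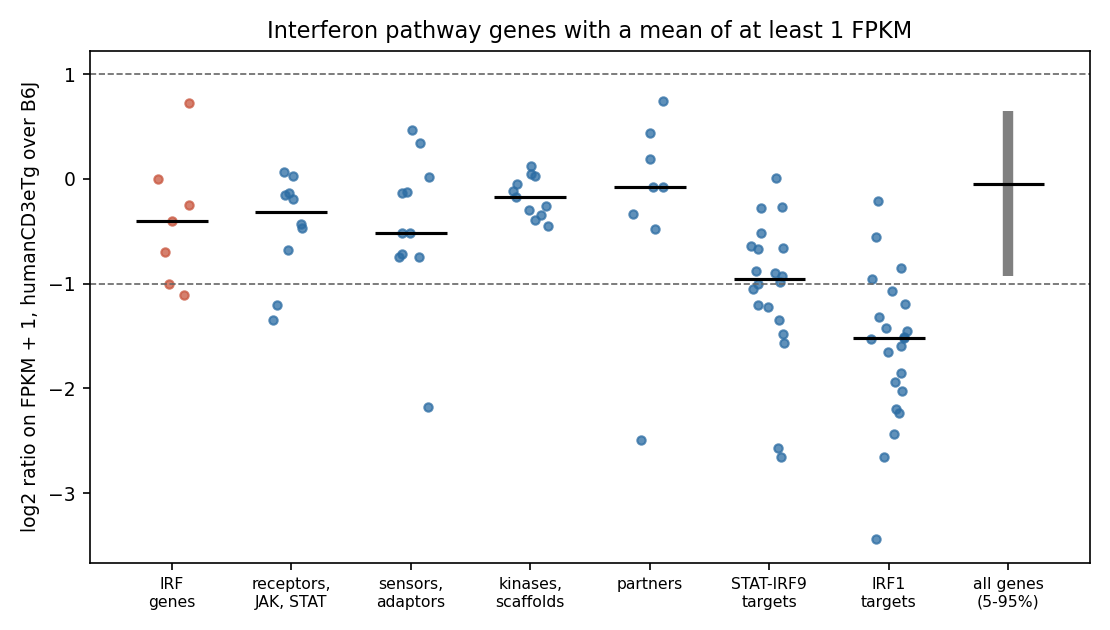
Log2 ratios on FPKM + 1 (humanCD3eTg over B6J) of the genes of each list whose mean reached 1 FPKM, 1 point per gene with a bar at the median, and for all 13493 genes used a grey bar from the 5th to the 95th percentile (-0.93 to 0.65). Medians run from -0.08 for partner genes to -1.52 for genes linked to IRF1, and the interferon regulatory factors (red) have a median of -0.40.

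**Figure D4:**
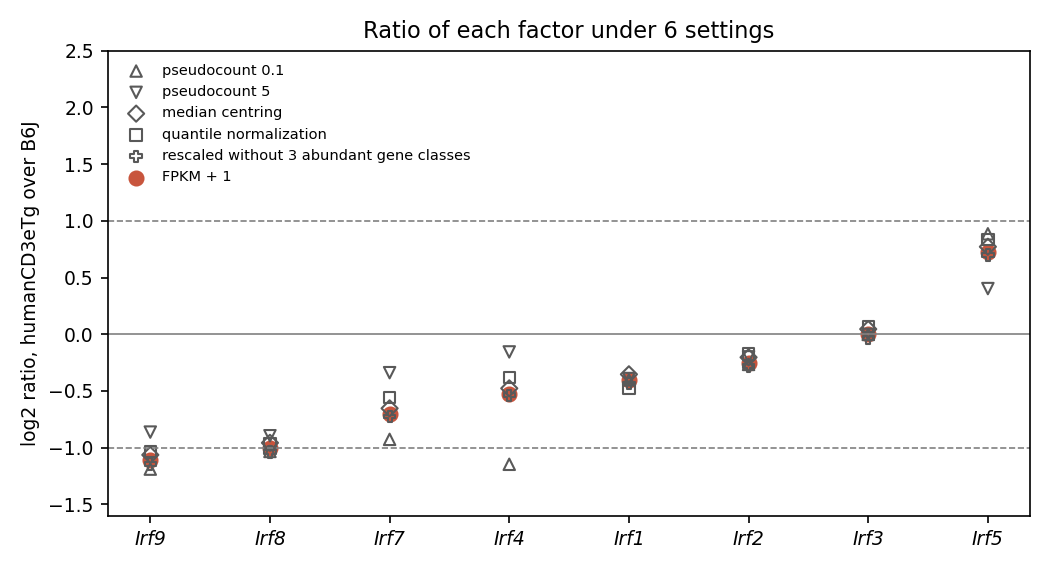
Log2 ratio of each factor on FPKM + 1 (red) and under 5 other settings (open symbols), with dashed lines at 2-fold. Irf9 stays between -1.19 and -0.86 and Irf8 between -1.04 and -0.90, Irf3 lies on either side of 0, and Irf4, at the lowest level, ranges from -1.15 to -0.16.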

How the data were processed

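Each deposited table pairs 25791 gene symbols with an FPKM value computed by the authors, per the file headers. Per the submitters' processing notes, the tools were TopHat2 2.0.8, Bowtie2 2.1.0 and Cufflinks 2.1.1 and the build was mm9, with no role given for any of them. The annotation, the filters and whether strand was used: not given in the sources used here. Groups follow the library titles. Log2 ratios were computed on FPKM + 1 with pandas 2.3.3 and numpy 2.4.6 for genes whose mean reached 1 FPKM, and a ratio of at least 2-fold was counted. The functions were tested on simulated data. The members, the 21 other gene lists and their tests were chosen with earlier results of these data known. All 8 members were named whatever their values. Every gene of a pathway list of up to 12 symbols could be named, of a longer list the 6 genes with the largest ratios, and of a marker list the first 4. Ifit2, Krt5, Arhgdib and Egfl7 were named outside this rule, after their values were seen. Some listed genes are not reported here and were left out of the counts.

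Depth is not part of the tables. Low values of single-transcript genes fell on steps of 0.0502 (B6J) and 0.0631 FPKM (humanCD3eTg) for 1 kb, using GENCODE M21 transcript lengths less 210 bases, or about 19900000 and 15800000 fragments. The steps were searched between 0.04 and 0.09, and 55.3% and 56.2% of 629 and 502 low genes came out within 0.1 of a whole fragment, so fragment numbers are approximate. Without lengths, the most frequent ratio of low values between libraries was 1.26. The longest coding transcript was used for each member, and no count test was run. A value of at most 0.001 FPKM is called listed at 0, which can be a failed estimate. Pairwise protein identity was not computed. Alternatives were pseudocounts of 0.1 and 5, quantile normalization, median centring, a rescaling that left out 102 genes (mitochondrial, ribosomal protein and haemoglobin), no filter, a minimum mean of 5 FPKM, and limits of 1.5-fold and 4-fold.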

Additional observations from a re-analysis of the deposited data

How the results depend on the processing

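No paired analysis was possible because each group held 1 library, and no replicate could be left out. No alternative reversed a difference of 2-fold. Members of low level moved within the limit: with a pseudocount of 5, Irf4 was at -0.16, Irf7 at -0.34 and Irf5 at 0.40. Irf3, near 0, changed sign and was at 0.05 with median centring and 0.07 with quantile normalization. With a pseudocount of 5, Irf8 was at -0.90 and Irf9 at -0.86, so 0 members were 2-fold lower. With median centring and with quantile normalization Irf8 was at -0.96 in each, which left 1 member, Irf9. With a pseudocount of 0.1, Irf4 was at -1.15. At a limit of 4-fold 0 members were lower, and at 1.5-fold 1 was higher. With a mean of at least 5 FPKM, 0 partner genes, 1 gene of the receptor and kinase list and 3 targets of the complex with IRF9 were at least 2-fold lower, since fewer genes were counted. The median of the last list was -1.19 with a pseudocount of 0.1 and -0.60 with 5. With no filter 1 interferon ligand, Ifnk, was 2-fold higher. The members with the fewest fragments (Irf4, Irf5 and Irf7) are the least precise.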

Other observations

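Negative regulators of interferon signalling were more often lower than higher in humanCD3eTg, as were all genes used. All 12 genes were used, 9 were lower, beside 55.4% of all genes used, and 3 were higher. The 2-fold limit was passed downwards by 2, beside 4.47%, and upwards by 0, beside 2.10%. The median log2 ratio was -0.35. Socs3, a feedback inhibitor of cytokine receptors, stood at 165 and 56.7 FPKM (-1.52), and Trim21, a ubiquitin ligase that acts on several interferon regulatory factors, at 7.26 and 2.89 FPKM (-1.09). Socs1, the main inhibitor of the interferon-gamma receptor, stood at 26.2 and 17.6 FPKM (-0.55), while Ptpn2, a phosphatase of JAK kinases, stood higher at 28.6 and 38.0 FPKM (0.40).

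Genes whose promoters carry the letters of the response element were also counted. Of 8561 genes used that had a promoter entry, 309 held its core, and 31 of these (10.03%) were lower by 2-fold or more, beside 3.85% of all 8561. For the gamma-activated site 37 of 712 (5.20%) passed this limit, and for the composite element of ETS and IRF factors 20 of 243 (8.23%). The medians of the log2 ratio were -0.13, -0.08 and -0.11, beside -0.06 for all genes with a promoter entry. These are descriptions of 1 library against 1 other, with no test.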
